A study of Mus musculus with 96 samples.

Results

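The peroxisome proliferator-activated receptors (PPARs) and the coregulators around PGC-1 were followed in liver, skeletal muscle and cerebral cortex of mice under intermittent fasting. The members were taken by gene symbol from the gene count table, and 8 of its 56748 genes matched. They are the 3 PPAR receptor genes Ppara, Ppard and Pparg, their shared partner Rxra, the orphan receptor gene Esrra (ERRα), the coactivator genes Ppargc1a (PGC-1α) and Ppargc1b (PGC-1β), and the corepressor gene Nrip1 (RIP140).

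PPARs are nuclear receptors that bind fatty acids and their derivatives and sit on DNA as heterodimers with a retinoid X receptor such as RXRα. PPARα drives fatty acid oxidation and ketone production in the fasted liver, PPARδ drives fatty acid oxidation in muscle, and PPARγ directs the formation of adipocytes and fat storage. PGC-1α and PGC-1β bind these receptors and ERRα and raise the transcription of mitochondrial genes, whereas RIP140 is recruited to the same receptors and represses many of those genes.

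The mice were C57BL/6 and ate freely (AL) or went without food for 16 h daily (IF). The study states a start at 6 weeks of age, 4 months on the diets and collection in the morning at the end of the fast for male mice, and does not describe mice 25 to 40. With that collection, an acute fast and a long adaptation cannot be told apart. The labels list 8 AL and 8 IF mice numbered 1 to 16 and labelled male, and 8 AL and 8 IF mice numbered 25 to 40 and labelled female, with 3 tissues from each mouse, and set and labelled sex cannot be told apart. Poly-A RNA was sequenced, and the values are raw read counts per gene. AL and IF mice are different animals, and no group received any other treatment or carried a transgene by the labels.

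The cortex library of AL mouse 1, labelled male, held 10219 counts of Xist, a transcript of the inactive X chromosome, and 0 counts of the Y-linked gene Ddx3y. The other 47 libraries of mice 1 to 16 held 0 to 25 counts of Xist and 889 to 2741 of Ddx3y, and the 48 libraries of mice 25 to 40 held 1407 to 56808 of Xist. This library went against its label and was left out, which leaves 95 of 96 libraries and 7 AL mice in cortex of mice 1 to 16. No pair of libraries was identical.

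Library totals ran from 26097314 to 49838004 counts. In mice 1 to 16 the totals lay between 26097314 and 44763638 in AL liver, between 31458822 and 40826057 in IF liver, between 29181553 and 46889676 in AL muscle, between 28319147 and 45019446 in IF muscle, between 32373437 and 39314534 in AL cortex and between 31956366 and 36239203 in IF cortex. In mice 25 to 40 they lay between 29779699 and 41530063 in AL liver, between 26693099 and 37906982 in IF liver, between 30141767 and 49838004 in AL muscle, between 36331661 and 44165322 in IF muscle, between 31231970 and 39411095 in AL cortex and between 33615626 and 40235336 in IF cortex. Levels are given in CPM, that is, counts scaled to the total of the library, and levels of different genes are compared only per kilobase of gene length. Differences are log2 fold changes from edgeR fitted over all genes that passed its expression filter, given with standard errors. A gene is called when its p, adjusted over all genes tested by the Benjamini-Hochberg procedure, is under 0.05, and a positive value means more mRNA under IF.

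On GRCm39, Ppara (ENSMUSG00000022383) lies on chromosome 15 from 85619184 to 85687020, Ppard (ENSMUSG00000002250) on chromosome 17 from 28451674 to 28520448, and Pparg (ENSMUSG00000000440) on chromosome 6 from 115337912 to 115467360. Rxra (ENSMUSG00000015846) lies on chromosome 2 from 27566452 to 27652969, and these 4 genes are on the plus strand. On the minus strand are Ppargc1a (ENSMUSG00000029167) on chromosome 5 from 51611592 to 51725068, Ppargc1b (ENSMUSG00000033871) on chromosome 18 from 61431207 to 61533502, Esrra (ENSMUSG00000024955) on chromosome 19 from 6888345 to 6899208 and Nrip1 (ENSMUSG00000048490) on chromosome 16 from 76084288 to 76170715. The 8 genes are on 8 different chromosomes. The span of Esrra is overlapped by Trmt112, a protein coding gene with 119607 counts over all libraries against 416567 for Esrra, and the strand setting of the counting is not stated, so the Esrra count is uncertain to that extent. The noncoding genes that overlap Pparg, Ppargc1a and Ppargc1b held at most 783 counts each.

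Under AL, transcripts of the obligate partner and of ERRα stood above those of the PPARs themselves in liver and muscle. In AL liver of mice 1 to 16, Rxra had the highest level of the 8 genes, with a mean of 27.1 ± 3.31 CPM per kb (SD, n = 8), followed by Esrra at 16.3 ± 1.69. Ppard (5.45 ± 2.67), Pparg (3.36 ± 1.22) and Ppara (2.70 ± 0.51) came next, and each overlapped its neighbour in mean ± SD. Nrip1 (0.86 ± 0.12), Ppargc1b (0.81 ± 0.17) and Ppargc1a (0.49 ± 0.22 CPM per kb) closed the order, and each overlapped its neighbour in mean ± SD. In AL liver of mice 25 to 40 the order began in the same way, with Rxra at 45.6 ± 9.05 and Esrra at 22.4 ± 5.55 CPM per kb (SD, n = 8), but Ppara (5.47 ± 1.44) preceded Pparg (3.33 ± 1.23) and Ppard (2.13 ± 0.53), with Ppargc1b at 1.94 ± 0.83, Ppargc1a at 1.37 ± 0.20 and Nrip1 at 0.71 ± 0.13. From Ppara down to Ppargc1a each gene overlapped its neighbour in mean ± SD.

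AL muscle of mice 1 to 16 had Esrra at 48.1 ± 6.78 and Rxra at 37.8 ± 1.93 CPM per kb (SD, n = 8), then Ppard (4.88 ± 0.37) and Ppargc1a (2.41 ± 0.25), each apart from the next in mean ± SD. Pparg (0.92 ± 0.36), Ppargc1b (0.85 ± 0.12) and Nrip1 (0.79 ± 0.13) overlapped in mean ± SD, and Ppara was lowest at 0.22 ± 0.11. In mice 25 to 40 Rxra (30.99 ± 3.26) and Esrra (30.6 ± 3.08) overlapped in mean ± SD, followed by Ppard (4.71 ± 0.39), Ppargc1a (2.28 ± 0.29), Ppargc1b (1.37 ± 0.29), Pparg (1.33 ± 0.48), Nrip1 (1.32 ± 0.26) and Ppara (0.24 ± 0.12 CPM per kb), where Ppargc1b, Pparg and Nrip1 overlapped in mean ± SD.

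In AL cortex Esrra led, with 23.3 ± 2.56 CPM per kb (SD, n = 7) in mice 1 to 16 and 26.4 ± 2.57 (SD, n = 8) in mice 25 to 40. Rxra (5.78 ± 0.94), Ppard (5.33 ± 1.05) and Ppargc1a (3.72 ± 0.71) followed in mice 1 to 16. Rxra and Ppard, and Ppard and Ppargc1a, overlapped in mean ± SD. Nrip1 (1.83 ± 0.16) and Pparg (1.44 ± 0.29) overlapped in mean ± SD, above Ppargc1b (0.37 ± 0.12) and Ppara (0.053 ± 0.028 CPM per kb). Mice 25 to 40 had Ppard at 6.32 ± 0.81, Rxra at 6.07 ± 0.63, Ppargc1a at 3.97 ± 0.38, Pparg at 1.91 ± 0.41, Nrip1 at 1.58 ± 0.14, Ppargc1b at 0.34 ± 0.074 and Ppara at 0.071 ± 0.061, of which Ppard and Rxra, and Pparg and Nrip1, overlapped in mean ± SD. Cortex libraries held 0 to 31 counts of Ppara.

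**Figure D1:**
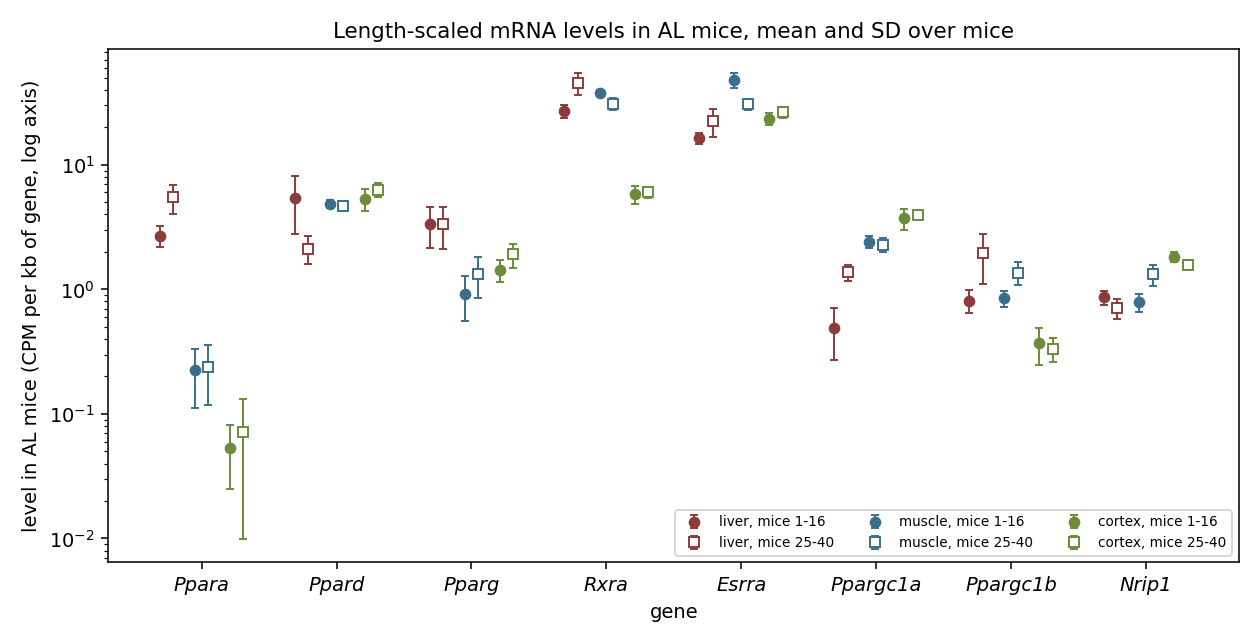
Levels of the 8 genes in AL mice of both sets, in CPM per kilobase of gene length on a log scale, by tissue. Points are means over the mice of a group and bars are SD. Rxra and Esrra stand highest in liver and muscle, at 27.1 and 16.3 CPM per kb in liver and 37.8 and 48.1 in muscle of mice 1 to 16, while Ppara falls to 0.053 in cortex.

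Each tissue carried its own markers. The 6 hepatocyte genes summed to between 49780 and 78350 CPM in AL liver of mice 1 to 16, with Alb the most abundant, and to between 0.14 and 1.92 CPM in AL muscle. The 6 skeletal muscle genes, led by Acta1, summed to between 129100 and 138500 CPM in AL muscle, and the 5 neuron genes, led by Snap25, to between 5487 and 6775 CPM in AL cortex. In AL cortex of mice 1 to 16 the hepatocyte list summed to between 4.73 and 3104 CPM, with a median of 29.1. Ttr was the only gene of the list at a mean of 1 CPM or more there.

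The levels of a gene across tissues were compared with the mouse as a block. In AL mice 1 to 16, edgeR called 5 of 8 members between muscle and liver (79.2% of 19759 genes tested), 8 of 8 between cortex and liver (83.4%) and 6 of 8 between cortex and muscle (80.2%). In AL mice 25 to 40 the counts were 7 of 8 (79.1% of 19580 genes), 8 of 8 (84.0%) and 6 of 8 (80.5%). Cortex contrasts shift the median gene by 0.25 over liver and 0.24 over muscle on the log2 scale in mice 1 to 16, so the values below stand relative to that. They also depend on the TMM scaling. In a comparison made after seeing the data, the members' log2 ratio of mean CPM lay above the TMM value of cortex by a median of 0.83 over liver and 1.05 over muscle in mice 1 to 16, and by 0.61 and 0.88 in mice 25 to 40. For muscle over liver the same median was -0.22 in mice 1 to 16 and -0.27 in mice 25 to 40. In mice 1 to 16 Ppara, the liver receptor of fasting, was lower in muscle than in liver by a log2 difference of -3.48 ± 0.21 (SE, adjusted p = 1.03e-11) and lower in cortex by -6.52 ± 0.27 (adjusted p = 2.13e-14). Ppargc1a was higher than in liver by 2.57 ± 0.20 (adjusted p = 5.75e-10) in muscle and by 2.10 ± 0.21 (adjusted p = 1.56e-08) in cortex in mice 1 to 16, and by 0.99 ± 0.10 (adjusted p = 2.71e-08) and 0.91 ± 0.10 (adjusted p = 7.65e-08) in mice 25 to 40. Ppard in cortex minus liver was -0.79 ± 0.18 (adjusted p = 0.000595) in mice 1 to 16, but only -0.03 as a ratio of mean CPM, and 0.96 ± 0.11 (adjusted p = 1.31e-07) in mice 25 to 40, with 1.57 in mean CPM. Rxra was higher in muscle than in liver in mice 1 to 16, by 0.70 ± 0.088 (adjusted p = 5.31e-07), with 0.48 in mean CPM. It was lower in mice 25 to 40, by -0.29 ± 0.13 (adjusted p = 0.0472), with -0.56 in mean CPM. In cortex Rxra was lower than in liver in both sets, by -3.06 ± 0.10 (adjusted p = 6.34e-16) and -3.54 ± 0.14 (adjusted p = 9.48e-15). Without the expression filter Rxra between muscle and liver of mice 25 to 40 (-0.27), and in mice 1 to 16 Esrra between cortex and liver (-0.21) and Ppargc1a between cortex and muscle (-0.40), lost their calls. Of the called cortex contrasts some turn direction with the scale. Between cortex and liver these were Esrra in mice 1 to 16 (-0.32 by TMM, 0.51 in mean CPM) and in mice 25 to 40 (-0.36 and 0.24). Between cortex and muscle they were Ppard in mice 1 to 16 (-0.96 and 0.12) and in mice 25 to 40 (-0.46 and 0.42), Ppargc1a in mice 1 to 16 (-0.48 and 0.62) and Nrip1 in mice 25 to 40 (-0.62 and 0.25). No direction is claimed for these.

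In liver of mice 1 to 16, the mRNA of the fasting receptor Ppara, of its partner Rxra and of both PGC-1 coactivators was higher under IF, whereas the mRNA of the other PPAR receptors, Ppard and Pparg, was lower. EdgeR called 6 of the 8 members, where 44.6% of 16204 genes tested were called, 4 of them higher (23.5% of all genes) and 2 lower (21.1%). The members' median log2 fold change was 0.52, beside 0.06 for all genes. In 2 of 8 members, Ppara and Rxra, no IF library fell within the AL range of CPM or the reverse, as in 14.6% of all genes tested.

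Ppara, which encodes the receptor that turns on fatty acid oxidation and ketogenesis in hepatocytes, ranged from 7.08 CPM through a median of 10.5 to 12.8 in AL livers and from 14.8 through 29.1 to 33.7 in IF livers. All 8 IF mice stood above the highest AL mouse, with IF mouse 10 (14.8) and IF mouse 9 (17.2) nearest to it. The gene was 2.36-fold higher under IF, a log2 fold change of 1.24 (SE 0.16, adjusted p = 8.67e-07). Rxra, which encodes the DNA-binding partner of all 3 PPARs, ranged from 144 through 168 to 197 CPM in AL and from 256 through 361 to 413 CPM in IF livers. The groups did not overlap, and IF mouse 10 was again the lowest IF mouse, at 256 CPM against 348 or more in the other 7. Rxra was 1.97-fold higher, with a log2 fold change of 0.98 (SE 0.099, adjusted p = 2.59e-08).

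Ppard, which encodes the PPAR found in most tissues, ranged from 18.9 through 36.5 to 81.7 CPM in AL and from 7.06 through 12.99 to 19.5 CPM in IF livers. Of the IF mice 7 of 8 lay below every AL mouse, and the AL mice spread widely, with AL mouse 2 at 81.7. The gene was 3.19-fold lower under IF, a log2 fold change of -1.67 (SE 0.23, adjusted p = 1.15e-05), the largest change in size among the 8 members. Pparg, the adipogenic receptor, ranged from 5.61 through 9.20 to 14.3 CPM in AL and from 4.64 through 6.12 to 11.5 CPM in IF livers. The groups overlapped in most mice, with 2 of 8 IF mice below the AL range, and the log2 fold change was -0.63 (SE 0.23, adjusted p = 0.0253).

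The coactivators were scarce in liver and rose together. Ppargc1a, which encodes the fasting-induced coactivator of gluconeogenesis and oxidation, ranged from 1.86 through 2.67 to 5.63 CPM in AL and from 3.77 through 5.31 to 11.5 CPM in IF livers. The highest value, 11.5, came from IF mouse 11, and 3 of 8 IF mice exceeded the AL range. Its log2 fold change was 0.79 (SE 0.27, adjusted p = 0.0174). Ppargc1b, its paralogue, ranged from 2.44 through 3.10 to 4.59 CPM in AL and from 1.74 through 6.51 to 11.7 CPM in IF livers. Of the 8 IF mice, 7 lay above all AL mice, and IF mouse 10, at 1.74, lay below them all. Its log2 fold change was 0.96 (SE 0.25, adjusted p = 0.00302).

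Esrra, whose product is a receptor without a known natural ligand that works with PGC-1, ranged from 60.4 through 74.5 to 78.9 CPM in AL and from 71.4 through 93.2 to 129.7 CPM in IF livers. It was above the AL range in 5 of 8 IF mice but missed the threshold, at 0.25 (SE 0.11, adjusted p = 0.0723). It passed when IF mouse 10 was left out, a choice made after seeing the data, at 0.28 (adjusted p = 0.0449; over all alternatives from 0.0449 to 0.277). Nrip1, the corepressor gene, had nearly equal medians of 9.70 CPM in AL and 9.78 CPM in IF livers, within ranges of 7.99 to 11.6 and 8.71 to 10.97. Its log2 fold change was -0.10 (SE 0.11, adjusted p = 0.468), with a 95% interval from -0.32 to 0.11.

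**Figure D2:**
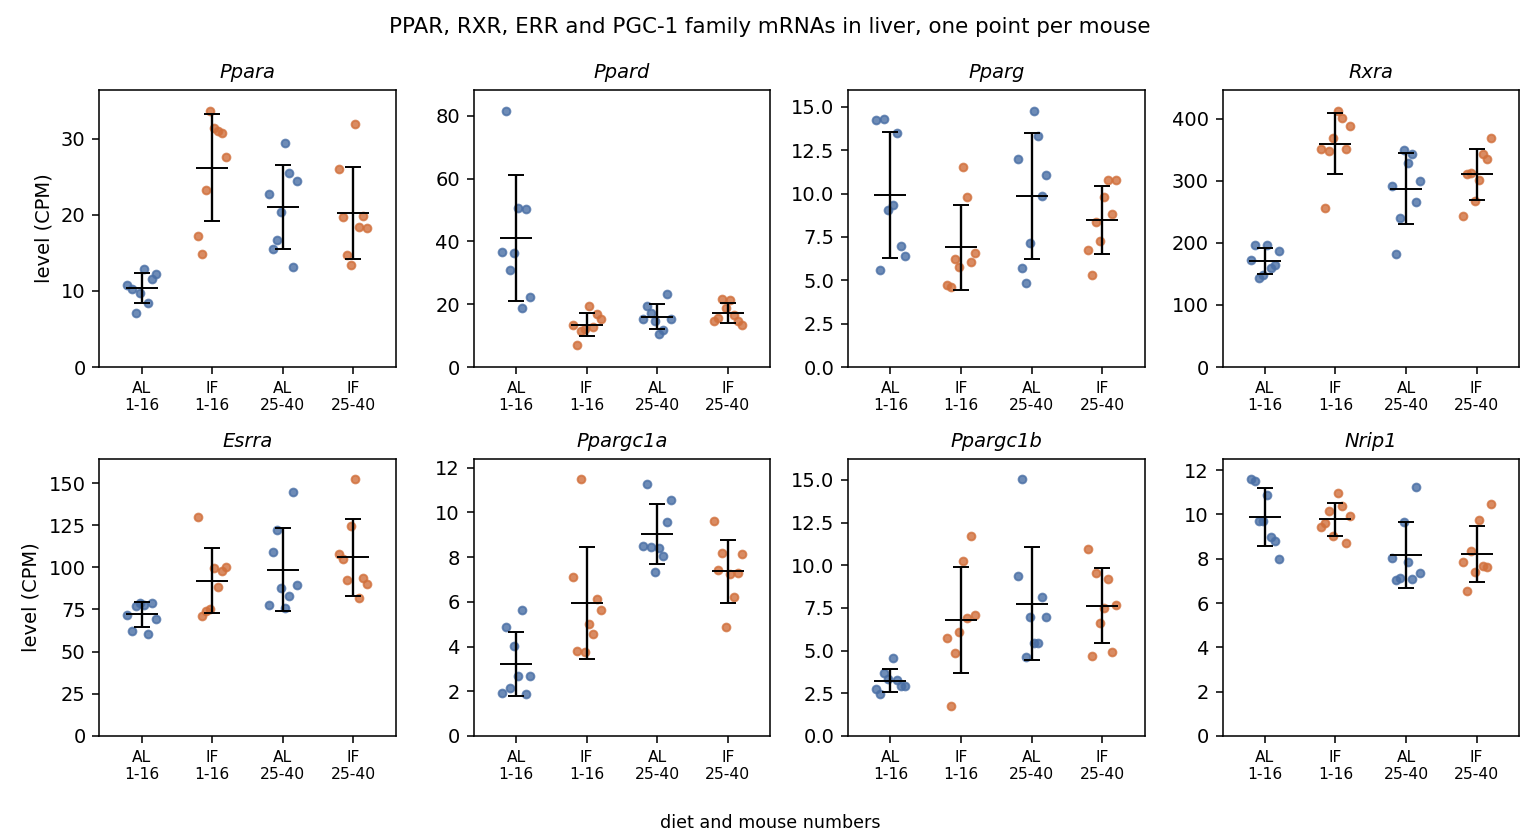
CPM of the 8 genes in liver, in AL and IF mice of mice 1 to 16 and mice 25 to 40; points are mice, black bars are means and error bars are SD (n = 8 each). In mice 1 to 16 the IF points of Ppara (14.8 to 33.7) and Rxra (256 to 413) lie above all AL points, and 7 of 8 IF points of Ppard lie below them.

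Genes that PPARα and PPARδ are known to induce were higher in the same livers. Of the 27 tested of 30 listed target genes, 22 rose and 1 fell, with a median log2 fold change of 1.07 beside 0.06 for all genes. Acot1, an acyl-CoA thioesterase, rose by 4.16 (SE 0.36, adjusted p = 1.32e-07) and the fatty acid hydroxylase gene Cyp4a14 by 3.99 (SE 0.42, adjusted p = 1.43e-06). The lipoprotein lipase inhibitor gene Angptl4 rose by 2.83 (SE 0.27, adjusted p = 1.91e-07) and the peroxisomal enzyme gene Ehhadh by 1.86 (SE 0.19, adjusted p = 4.65e-08). None of these 4, named for the largest called changes of the list, overlapped between the diets. Of all genes tested, 14.6% did not overlap. Of the 22 tested genes listed as PGC-1 and ERR targets, 8 rose and 7 fell beside 44.6% of all genes called, with a median of -0.016. Atp5b (1.71), Errfi1 (1.504) and Ndufa4 (1.35) rose and the mitochondrial transcription gene Tfb1m fell by 1.22. The list of PPARγ targets in adipocytes had 6 of 10 genes tested, of which Plin4 rose by 2.12 and Cfd fell by 4.70.

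Among 20 genes known to act on Ppargc1a or its protein, 7 rose and 2 fell, with a median of 0.28, in livers where 44.6% of all genes were called. Nr1d1, a repressor of the clock, fell by 1.963, while Foxo1 (1.57), Mef2c (0.86) and Fnip1 (0.75) rose, though Mef2c lost its call without IF mouse 9 (0.75, adjusted p = 0.0519, alternatives from 0.0131 to 0.0519). Of 17 corepressors and coactivators of nuclear receptors, 5 rose and 2 fell beside the same 44.6%, with a median of 0.15, and Lpin1 (3.23), Ctbp2 (0.78) and Ncor1 (0.42) were among those that rose. Of the 6 other genes of these families, Pprc1 (0.74) and Rxrb (0.41) rose and Esrrg (-1.42) and Rxrg (-1.32) fell. All 13 core clock genes were called, 9 higher and 4 lower, with Npas2 at -6.22, Per1 at 4.53, Ciart at 3.92 and Per3 at 2.22.

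Markers of other cells were also called in the same libraries. Over all marker lists, 19 of 39 genes tested were called, beside 44.6% of all genes. Of 5 erythrocyte genes, 3 rose, and their summed level was 362 to 956 CPM in AL and 667 to 6879 CPM in IF livers, with Hba-a1 the most abundant. Of 5 bile duct and stellate cell genes, 4 rose, with sums of 26.98 to 43.0 and 48.3 to 98.7 CPM led by Colec11, and of 4 endothelial genes 2 rose, with sums of 39.9 to 60.1 and 64.3 to 112.7 CPM led by Kdr, of which Tek lost its call without IF mouse 9 (0.39) and in 1 fit over both sets (0.51). None of the genes of these 3 lists was at 0 in a whole group. Of 6 hepatocyte genes, Apoa1 fell by 0.48, and 2 were called without IF mouse 10, 2 with the replicate block and 3 with 7 mice per group. The hepatocyte sum was 49780 to 78350 in AL and 42840 to 64380 CPM in IF livers. Their part in the members' results was not tested, and fewer cells of a type and less RNA per cell cannot be told apart in whole tissue.

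Genes of further marker lists were called in liver, where 44.6% of all genes tested were called. Of 6 macrophage genes Clec4f alone was called (0.41). Of 3 tested genes of the astrocyte list Slc1a2 (1.28) and Aldh1l1 (0.31) rose and Aqp4 fell by 0.90. The sum of that list, 731 to 970 CPM in AL mice, was mostly Aldh1l1, and Gfap did not pass the expression filter. Calls from the astrocyte, neuron, oligodendrocyte and brown adipocyte lists do not show that such cells are in liver. Syt1 (0.61) rose among 2 tested neuron genes, and Mbp rose (1.47) among 3 tested oligodendrocyte genes, of which 1 rose and 1 fell. Cfd fell among 2 tested adipocyte genes, and the sum of all 6 listed was 17.0 to 40.8 CPM in AL and 4.36 to 18.2 CPM in IF mice with Lep at 0 in IF mice, and Elovl3 fell by 2.08 as the only tested brown adipocyte gene, with Dio2 at 0 in both groups. Clec4f (0.36) and Aldh1l1 (0.29) lost their calls without IF mouse 9, as did Aldh1l1 without IF mouse 10 (0.25). Both also lost them without the expression filter (0.38 and 0.28), in 1 fit over both sets (0.37 and 0.28) and with 7 mice per group (0.38 and 0.24), as did Clec4f with RLE size factors (0.38), Aldh1l1 with the replicate block (0.30) and Aqp4 in 1 fit over both sets (-0.94). The single tested genes of the skeletal muscle and oxidative fibre lists were not called by edgeR or DESeq2 and had an unadjusted p over 0.05.

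In liver of mice 25 to 40 the diets were close. EdgeR called 0 of the 8 members, as 0.0% of 15938 genes tested, and DESeq2 called 0 members and 6 genes. At an unadjusted p under 0.05, 0 members and 919 genes passed. Ppara ranged from 13.2 through 21.6 to 29.4 CPM in AL and from 13.4 through 19.0 to 31.9 CPM in IF livers, and Rxra from 181 through 295 to 349.5 CPM and from 244 through 312 to 369.7 CPM. AL and IF mice overlapped in all 8 members. The log2 fold changes lay between -0.25 (SE 0.14) for Ppargc1a and 0.15 (SE 0.14) for Rxra, with adjusted p from 0.85 upward. For Ppara the 95% interval ran from -0.37 to 0.32, and for Ppard from -0.15 to 0.42. Of the 116 genes of the other pathway lists, 105 were tested and 0 were called by edgeR or by DESeq2, with 4 at an unadjusted p under 0.05.

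The response itself was tested for a difference between the sets, and 4 of 8 members were called (23.7% of 17658 genes). From mice 1 to 16 to mice 25 to 40 the log2 response changed by -1.23 (SE 0.25, adjusted p = 0.000268) in Ppara, by 1.84 (SE 0.27, adjusted p = 4.86e-06) in Ppard, by -1.02 (SE 0.31, adjusted p = 0.0139) in Ppargc1a and by -0.79 (SE 0.17, adjusted p = 0.000469) in Rxra. Ppargc1b missed the threshold at -0.89 (SE 0.34, adjusted p = 0.0549), as did Pparg, Esrra and Nrip1 with adjusted p from 0.289 to 0.806. Of the markers, 3 of 5 bile duct and stellate cell genes (median -1.23) and 2 of 5 erythrocyte genes had a lower response in this contrast, and their part was not tested.

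The AL livers of the sets also differed, in a comparison added after seeing the data. It called 6 of 8 members (20.0% of 17658 genes tested) and shares the AL libraries of mice 1 to 16 with the diet comparison. Against AL mice 1 to 16, AL mice 25 to 40 had more Ppara (0.87, SE 0.18, adjusted p = 0.000284), more Ppargc1a (1.34, SE 0.22, adjusted p = 1.76e-05), more Ppargc1b (1.09, SE 0.25, adjusted p = 0.0011) and more Rxra (0.60, SE 0.12, adjusted p = 0.000201). They had less Ppard (-1.49, SE 0.20, adjusted p = 3.09e-07) and less Nrip1 (-0.43, SE 0.11, adjusted p = 0.00566), and Pparg and Esrra were not called. In plain levels, the Ppard median of 15.4 CPM in AL mice 25 to 40 stood beside 36.5 CPM in AL and 12.99 CPM in IF mice 1 to 16. The clock genes differed too, with 9 of 13 higher and 4 lower in AL mice 25 to 40, and 8 of 27 PPARα and PPARδ targets were higher and 1 lower. Genes of the marker lists differed as well, with 2 of 6 macrophage genes higher (median 0.62). Of 2 tested adipocyte genes 1 was lower (median -2.75). Elovl3, the 1 tested gene of the brown adipocyte list, was also lower (-8.13). Its mean was 427.9 CPM in AL mice 1 to 16 and 1.67 CPM in AL mice 25 to 40. It was the only gene of that list at a mean of 1 CPM or more, and it alone cannot show brown adipocytes in liver. The hepatocyte, endothelial and erythrocyte lists had 1 gene lower each, the neuron and the bile duct and stellate cell lists 1 higher. Of 4 astrocyte genes 1 was higher and 1 lower, and the part of these markers was not tested.

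In muscle of mice 1 to 16 the corepressor gene Nrip1, the coactivator gene Ppargc1a and Pparg were higher under IF, while Esrra, Ppard and Rxra were lower. EdgeR called 6 of 8 members (23.0% of 15025 genes tested), 3 higher (11.5% of all genes) and 3 lower (11.6%). CPM ranges of the diets were fully apart in 2 members, Nrip1 and Rxra, as in 4.17% of all genes tested. The members' median log2 fold change was -0.16, beside 0.0059 for all genes.

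Among the receptors, Ppard, the main PPAR of muscle by level, ranged from 33.1 through 36.8 to 41.3 CPM in AL and from 23.8 through 27.9 to 35.7 CPM in IF muscle. Of the IF mice 6 of 8 fell below the AL range, and IF mice 10 and 12 lay inside it. It was 1.32-fold lower, with a log2 fold change of -0.40 (SE 0.074, adjusted p = 0.000504). Pparg ranged from 1.74 through 2.48 to 4.995 CPM in AL and from 4.34 through 5.53 to 18.9 CPM in IF muscle. The highest value came from IF mouse 12, and in all, 5 of 8 IF mice lay above the AL range, whose top was AL mouse 2. The log2 fold change of Pparg was 1.34 (SE 0.31, adjusted p = 0.00537), and without IF mouse 12 it was 0.98 (SE 0.19, adjusted p = 0.00109), a choice made after seeing the data.

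Ppara had under 3 CPM in muscle, from 0.51 through 0.67 to 1.60 in AL and from 0.32 through 0.50 to 2.67 in IF mice. IF mouse 12 held the highest value and 4 of 8 IF mice lay below the AL range. The gene was not called by edgeR, at -0.27 (SE 0.41, adjusted p = 0.685), but was by DESeq2, at -0.88 (adjusted p = 0.0152), and without IF mouse 12, at -0.95 (adjusted p = 0.0259), where the alternatives ran from 0.0152 to 0.764. Rxra, the shared partner, ranged from 224 through 235 to 256 CPM in AL and from 179 through 194 to 221 CPM in IF muscle. Every IF mouse lay below every AL mouse by CPM, and the gene was 1.27-fold lower, at -0.34 (SE 0.057, adjusted p = 0.000167).

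Esrra, the most abundant member in AL muscle per kilobase, ranged from 154 through 218 to 252 CPM in AL and from 123 through 150.5 to 200.4 CPM in IF muscle. IF mice below the AL range numbered 5 of 8, and the log2 fold change was -0.51 (SE 0.093, adjusted p = 0.000472). Ppargc1a, its coactivator, moved the opposite way, from 14.02 through 15.4 to 19.3 CPM in AL to between 16.1 and 33.8 CPM in IF muscle, with an IF median of 30.1. All IF mice but mouse 9 lay above the AL range, 7 of 8, and the log2 fold change was 0.70 (SE 0.12, adjusted p = 0.000422). Ppargc1b had medians of 3.24 CPM in AL and 3.12 CPM in IF muscle, and its log2 fold change was -0.05 (SE 0.16, adjusted p = 0.872, 95% interval from -0.36 to 0.27).

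Nrip1, whose product recruits histone deacetylases to nuclear receptors, showed the largest log2 fold change of the members in muscle. It ranged from 6.84 through 9.08 to 11.8 CPM in AL and from 20.5 through 24.4 to 39.1 CPM in IF muscle. The lowest IF mouse thus lay well above the highest AL mouse. It was 2.75-fold higher, with a log2 fold change of 1.46 (SE 0.12, adjusted p = 1.39e-07).

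**Figure D3:**
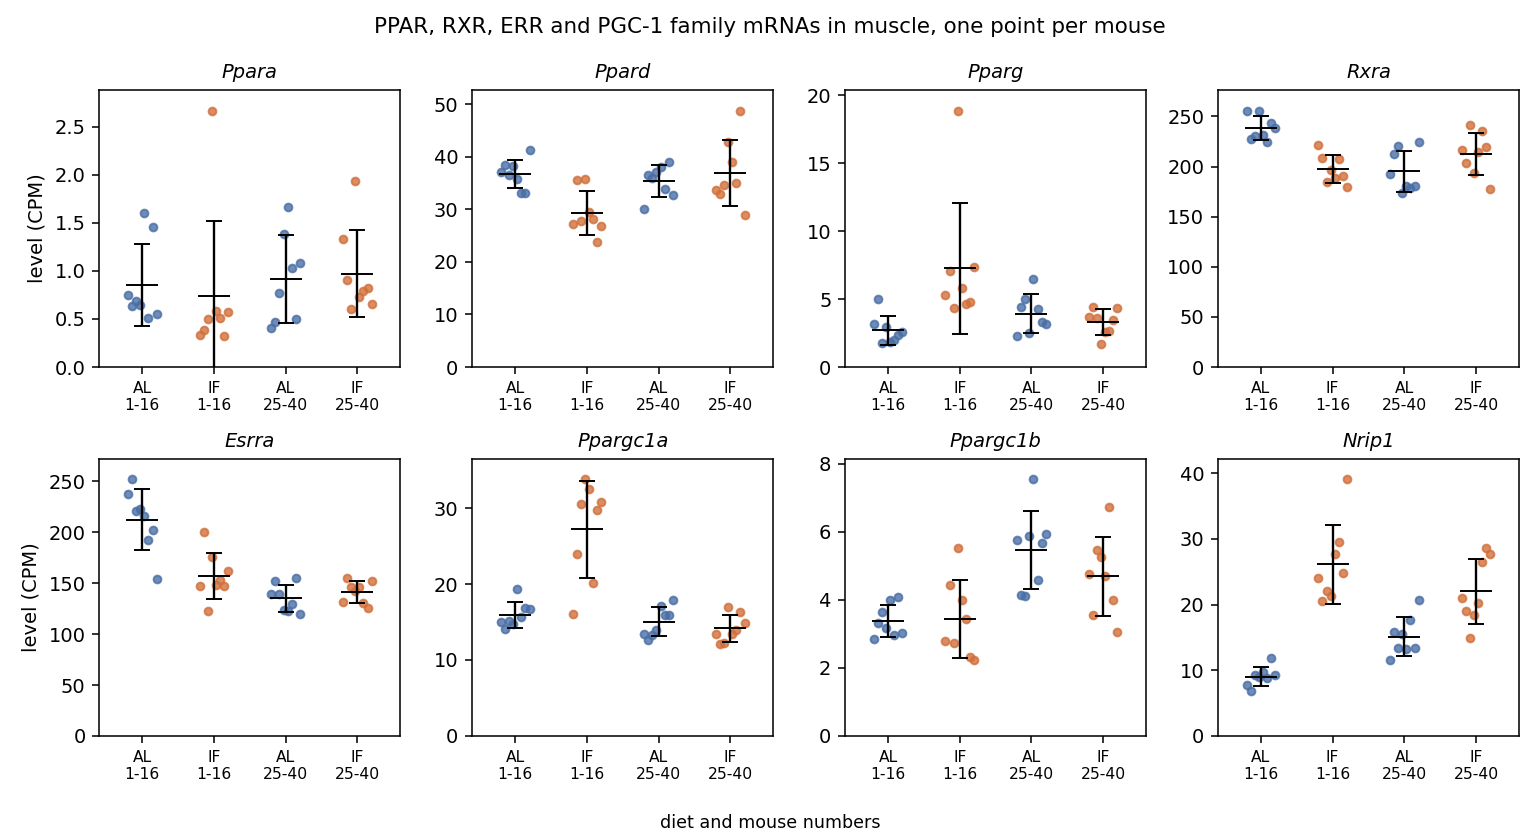
CPM of the 8 genes in skeletal muscle, in AL and IF mice of mice 1 to 16 and mice 25 to 40; points are mice, black bars are means and error bars are SD (n = 8 each). In mice 1 to 16 the IF points of Nrip1 (20.5 to 39.1) lie above and those of Rxra (179 to 221) below all AL points, and IF mouse 12 stands apart in Pparg at 18.9.

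Of the 24 tested PPARα and PPARδ targets, 13 rose and 0 fell by edgeR in muscle of mice 1 to 16, with a median log2 fold change of 0.32 beside 0.0059 for all genes. Those that rose most were Acaa1b (3.43, SE 0.86, adjusted p = 0.01) and Angptl4 (2.80, SE 0.38, adjusted p = 0.000138). Next came the pyruvate dehydrogenase kinase gene Pdk4 (2.58, SE 0.23, adjusted p = 1.99e-06) and the uncoupling protein gene Ucp3 (2.16, SE 0.18, adjusted p = 6.57e-07). All of these but Acaa1b had no overlap between the diets, beside 4.17% of all genes tested. Of 23 PGC-1 and ERR targets, 1 rose and 5 fell, with a median of -0.011, in muscle where 23.0% of all genes were called. Errfi1 rose by 0.56, and Cox5b (-0.40), Ckmt2 (-0.33) and Cycs (-0.29) fell. Without the expression filter, in 1 fit over both sets and with 7 mice per group Cox5b (-0.40, -0.40 and -0.39) and Ckmt2 (-0.33, -0.33 and -0.26) lost their calls and 3 genes of the list were called, and Cox5b also lost its call with the replicate block (-0.39) and without IF mouse 12 (adjusted p = 0.0593, alternatives from 0.00917 to 0.101).

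Among the 20 regulators of Ppargc1a, 5 rose and 3 fell beside 23.0% of all genes called, with a median of 0.06, and Nr1d1 (-2.47), Foxo1 (0.87), Irs2 (0.69) and Crtc1 (-0.47) changed most. Of the 17 corepressors and coactivators, 2 rose and 2 fell beside the same 23.0%, with a median of 0.05, among them Ncoa2 (0.30) and Lpin1 (0.24), which rose, and Ncoa1 (-0.31), which fell. Of the 6 other family genes 3 fell, with a median of -0.29, namely Perm1 (-0.34), Rxrg (-0.33) and Rxrb (-0.26), and Perm1 lost its call without the expression filter (-0.34), in 1 fit over both sets (-0.34) and with 7 mice per group (-0.34), as did Lpin1 in 1 fit over both sets (0.24). The clock genes had 6 higher and 5 lower of 13, with Nr1d1 at -2.47, Npas2 at -2.38, Per1 at 2.04 and Per2 at 1.59.

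PPARγ targets of adipocytes moved with Pparg in muscle, and so did adipocyte markers. Of the 10 target genes 9 rose and 0 fell by edgeR, beside 11.5% of all genes higher and 11.6% lower. Their median was 2.10, beside 0.0059 for all genes. Those that rose included Cfd (2.84), Cidec (2.52), Adipoq (2.25) and Retn (2.204), which are also 4 of the 6 adipocyte markers. Of these 6 markers 5 rose, and their sum was 33.8 to 352 CPM in AL muscle and 122 to 1963 CPM in IF muscle, with Cfd the most abundant and no marker at 0. IF mouse 12, highest in Pparg, also had the highest adipocyte sum, 1963 CPM, and AL mouse 2, highest in Pparg among AL mice, had the highest AL sum, 352. Of 3 tested brown adipocyte genes Cidea rose (4.52), with sums of 1.70 to 7.45 CPM in AL and 3.69 to 219 CPM in IF muscle. With at least 10 counts in every library 0 brown adipocyte genes were called, and without the expression filter 2 were. The part of the adipocyte and brown adipocyte markers in the result of Pparg was not tested.

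Fibre type markers were measured because slow and other oxidative fibres are rich in PGC-1α and mitochondria. None of the 5 genes of slow or oxidative fibres was called by edgeR, although their median was -1.06 (1 passed at an unadjusted p under 0.05 and DESeq2 called 0), and their sum was 409 to 2934 CPM in AL and 98.4 to 1035 CPM in IF muscle with Myh2, which encodes the myosin of fast oxidative (type IIa) fibres, the most abundant. Of the 6 skeletal muscle genes Myod1 (-0.60), Mylpf (-0.29) and Ckm (-0.19) fell, with sums of 129100 to 138500 and 113500 to 149900 CPM. Over all marker lists in muscle of mice 1 to 16, 12 of 40 genes tested were called, beside 23.0% of all genes. Of the other lists, Aldh1l1 (0.51) rose among 2 tested astrocyte genes. Kdr (-0.54) fell among 4 endothelial and Csf1r (-0.44) among 2 tested macrophage genes. EdgeR did not call the 5 erythrocyte, 3 tested oligodendrocyte, 2 tested bile duct and stellate cell, 1 tested neuron and 1 tested hepatocyte genes. DESeq2 called 1 oligodendrocyte and 1 hepatocyte gene among these, and 1 gene each of the oligodendrocyte, bile duct and stellate cell, and hepatocyte lists passed at an unadjusted p under 0.05. Without IF mouse 12 Aldh1l1 (0.41), Csf1r (-0.46) and Ckm (-0.16) lost their calls. So did Mylpf (-0.29) and Ckm (-0.19) in 1 fit over both sets, which called 1 skeletal muscle gene, Kdr (-0.54), Csf1r (-0.44) and Aldh1l1 (0.51) without the expression filter, and Csf1r (-0.44) with the replicate block. Their part in the members' results was not tested.

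In muscle of mice 25 to 40 edgeR called 0 of 8 members (0.00653% of 15308 genes, or 1 gene). At an unadjusted p under 0.05 there were 2 members, Nrip1 and Rxra, and DESeq2 called 97 genes and 1 member, Nrip1. Nrip1 ranged from 11.5 through 14.4 to 20.7 CPM in AL and from 14.9 through 20.6 to 28.6 CPM in IF muscle. The groups overlapped, with 4 of 8 IF mice above the AL range. Its log2 fold change was 0.61 (SE 0.14) with an adjusted p of 0.2 in edgeR and of 0.00774 in DESeq2 (alternatives from 0.00774 to 0.315). Rxra had medians of 186 and 215 CPM and a log2 fold change of 0.19 (SE 0.084, adjusted p = 0.431), and the other 6 members lay between -0.17 and 0.17. Of the pathway list genes 109 were tested and 0 called by edgeR, 11 passed at an unadjusted p under 0.05, and DESeq2 called 1. Of 4 endothelial markers (median -0.42) 0 were called by edgeR, and 4 passed at an unadjusted p under 0.05. DESeq2 called 1 endothelial gene, as did edgeR without the expression filter and in 1 fit over both sets. Of 6 skeletal muscle genes (median 0.12) 2 passed at an unadjusted p under 0.05. The part of these markers was not tested.

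The muscle response differed between the sets in 6 of 8 members (14.2% of 16346 genes). The log2 response of mice 25 to 40 minus that of mice 1 to 16 was 0.55 (SE 0.12, adjusted p = 0.00171) in Ppard, -1.49 (SE 0.37, adjusted p = 0.00681) in Pparg and 0.55 (SE 0.10, adjusted p = 0.000451) in Rxra. It was -0.70 (SE 0.16, adjusted p = 0.00232) in Ppargc1a, 0.66 (SE 0.12, adjusted p = 0.000449) in Esrra and -0.83 (SE 0.19, adjusted p = 0.00351) in Nrip1. In the same contrast 4 of 6 adipocyte markers were lower and 0 higher by edgeR, with a median of -2.58, and 8 of 10 PPARγ targets in adipocytes were lower, with a median of -2.41. Of the other markers, 2 of 6 skeletal muscle genes were higher (median 0.38) and 2 of 4 endothelial genes lower (median -0.39). The astrocyte and brown adipocyte lists had 1 gene lower each. The part of the markers in the results of Pparg and the other members was not tested. The AL muscles of the sets differed in 4 of 8 members (38.4% of 16346 genes), again in a comparison added after seeing the data. AL mice 25 to 40 had less Esrra (-0.79, SE 0.089, adjusted p = 1.8e-08) and less Rxra (-0.42, SE 0.074, adjusted p = 2.99e-05) and more Nrip1 (0.61, SE 0.14, adjusted p = 0.000806) and more Ppargc1b (0.55, SE 0.17, adjusted p = 0.00805). Markers differed there as well, with 4 of 6 skeletal muscle and 3 of 5 erythrocyte genes lower (medians -0.30 and -0.87) and 3 of 4 tested bile duct and stellate cell genes higher (median 4.08), and their part was not tested.

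In cortex no diet difference in a member passed the threshold. In mice 1 to 16 edgeR called 0 of the 7 members tested (7.21% of 18462 genes), DESeq2 called 0, and 3 passed at an unadjusted p under 0.05. Ppara, with 0 to 15 counts per library, did not pass the expression filter. The 3 members were Esrra, at 0.19 (SE 0.080, adjusted p = 0.14), Nrip1, at -0.19 (SE 0.069, adjusted p = 0.0926), and Rxra, at 0.27 (SE 0.099, adjusted p = 0.106). Esrra ranged from 89.1 through 105.5 to 120.1 CPM in AL and from 104 through 113 to 145 CPM in IF cortex, with IF mouse 10 highest. Nrip1 ranged from 17.4 through 21.4 to 22.6 CPM and from 15.4 through 18.4 to 19.4 CPM, and Rxra from 26.8 through 37.8 to 45.6 CPM and from 35.2 through 43.4 to 50.3 CPM. The groups overlapped in all 3 genes. With both sets in 1 fit Rxra passed, at 0.26 (adjusted p = 0.0482, alternatives from 0.0482 to 0.26). Ppargc1a had medians of 24.8 and 22.0 CPM and a log2 fold change of -0.14 (SE 0.10, 95% interval from -0.33 to 0.06).

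In cortex of mice 1 to 16 edgeR called 14 of 103 pathway list genes tested, beside 7.21% of all genes. Angptl4 (0.97) and Cpt1a (0.34) rose and Cd36 (-1.55) fell among 24 tested PPARα and PPARδ targets. The median of these targets was 0.04, beside -0.0049 for all genes. Plin4 rose (3.35) and Retn fell by 0.83 among 4 tested adipocyte targets, Mfn2 (0.31) rose among 22 PGC-1 and ERR targets, and Sirt1 (-0.33) and Atf2 (-0.26) fell among 20 regulators. Sirt1 is also the 1 called gene of 17 corepressors and coactivators, and of 6 other family genes 0 were called by edgeR or DESeq2 or passed at an unadjusted p under 0.05. Of 13 clock genes 4 rose and 2 fell, with Ciart at 0.95, Dbp at 0.77, Per3 at 0.54 and Arntl at -0.48. With the cortex library of AL mouse 1 included, Cpt1a (0.30), Retn (-0.73), Mfn2 (0.25), Sirt1 (-0.30), Atf2 (-0.23), Ciart (0.63) and Dbp (0.52) lost their calls. Without AL mouse 2 and IF mouse 10, Cd36 (-1.37), Sirt1 (-0.29), Retn (-0.82), Mfn2 (0.28) and Cpt1a (0.33) lost them, and with the replicate block Cd36 (-1.39), Sirt1 (-0.35), Retn (-0.87) and Atf2 (-0.26) did.

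Markers of myelin moved in the same cortex libraries, with 3 of 4 oligodendrocyte genes higher and sums of 3652 to 5693 CPM in AL and 4943 to 8125 CPM in IF mice, led by Mbp, and Mbp (0.49) and Mag (0.28) lost their calls with the cortex library of AL mouse 1 included, as did Mag with the replicate block (0.36) and without AL mouse 2 and IF mouse 10 (0.33). Over all marker lists, edgeR called 5 of 43 genes tested in this cortex, beside 7.21% of all genes. The 5 neuron genes had 0 called by edgeR or DESeq2 and 0 at an unadjusted p under 0.05, and Aqp4 (-0.51) fell among 4 astrocyte genes. Retn was the only tested adipocyte marker, and of the hepatocyte, skeletal muscle, oxidative fibre, macrophage, endothelial, brown adipocyte, erythrocyte, and bile duct and stellate cell lists 0 genes were called by edgeR, while DESeq2 called 2 endothelial genes, and 2 endothelial, 1 oxidative fibre and 1 bile duct or stellate cell genes passed at an unadjusted p under 0.05. Of the 7 members tested none was called, and the part of the markers in their values was not tested. In mice 25 to 40 edgeR called 0 of 8 members (0.0109% of 18403 genes), DESeq2 called 0 and none passed at an unadjusted p under 0.05. Their log2 fold changes lay between -0.15 for Ppargc1a and 0.54 (SE 0.50) for Ppara, whose AL and IF medians were 0.16 and 0.39 CPM. Of 103 pathway list genes tested 0 were called by edgeR, 1 by DESeq2, and 18 passed at an unadjusted p under 0.05. Of the marker genes of all lists in mice 25 to 40, edgeR called 0 of 39 tested in liver, 0 of 40 in muscle and 0 of 42 in cortex, DESeq2 called 0, 1 and 0, and 0, 6 and 7 passed at an unadjusted p under 0.05.

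The cortex response did not differ between the sets in any of the 8 members by edgeR (2.03% of 19547 genes called), and 1 member, Esrra, had an unadjusted p under 0.05 (-0.34, SE 0.11, adjusted p = 0.114). DESeq2 was not run for this contrast. Between the AL cortices of the sets, 1 of 8 members was called (12.6% of 19547 genes), with less Nrip1 in mice 25 to 40 (-0.21, SE 0.068, adjusted p = 0.0418), a call lost without the expression filter (-0.21). Oligodendrocyte genes were among the markers that differed in both contrasts, and their part was not tested.

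The responses of the tissues were then set against each other within mice 1 to 16, with the mouse as a block. Muscle and liver differed in 7 of 8 members (31% of 21608 genes), all but Ppargc1a, whose difference was -0.07 (SE 0.28, adjusted p = 0.936). The muscle minus liver difference in log2 response was -1.61 (SE 0.42) for Ppara, 1.24 (SE 0.24) for Ppard, 1.91 (SE 0.36) for Pparg, -1.28 (SE 0.13) for Rxra, -0.71 (SE 0.15) for Esrra, -0.93 (SE 0.34) for Ppargc1b and 1.60 (SE 0.15) for Nrip1, with adjusted p from 3.44e-10 to 0.0328. Rxra and Pparg thus went opposite ways in these tissues, with each direction called on its own. Cortex and liver differed in 3 of 8 (26.7% of genes), with 1.69 (SE 0.25, adjusted p = 4.22e-06) for Ppard, -0.84 (SE 0.29, adjusted p = 0.0271) for Ppargc1a and -0.69 (SE 0.13, adjusted p = 0.000124) for Rxra. Cortex and muscle differed in 4 of 8 (3.8% of genes), with -1.31 (SE 0.37, adjusted p = 0.0381) for Pparg, 0.68 (SE 0.15, adjusted p = 0.00739) for Esrra, -1.65 (SE 0.15, adjusted p = 2.23e-08) for Nrip1 and 0.59 (SE 0.13, adjusted p = 0.00739) for Rxra. Without the expression filter the muscle and liver difference of Ppargc1b (-0.91), the cortex and liver difference of Ppargc1a (-0.82) and the cortex and muscle difference of Pparg (-1.31) lost their calls. Without the mouse block cortex and muscle differed in 5 of 8, with Ppargc1a (-0.85, adjusted p = 0.0456, alternatives from 0.0456 to 0.252) the added member. These contrasts share libraries.

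In mice 25 to 40 the same contrasts called 0 of 8 members by edgeR. Of 21292 genes, 0.0047% were called between muscle and liver, 0.0% between cortex and liver and 0.0047% between cortex and muscle, which is 1, 0 and 1 genes, and 13, 12 and 1 without the mouse block. Of the members 1, 1 and 2 passed at an unadjusted p under 0.05. DESeq2 was not run for these contrasts. The value with the smallest unadjusted p was that of Nrip1, cortex minus muscle, at -0.66 (SE 0.16, adjusted p = 0.496).

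**Figure D4:**
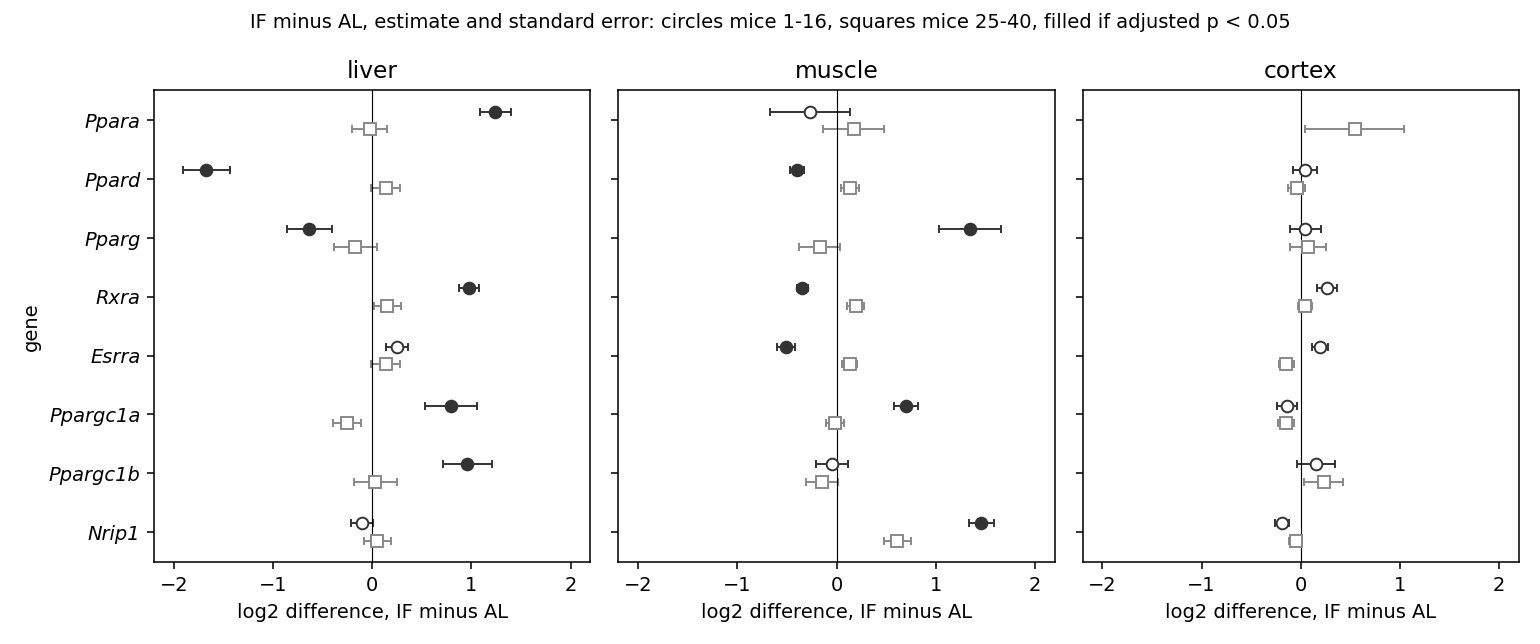
Log2 fold change of IF against AL for the 8 genes in each tissue and set of mice. Bars are standard errors of the estimates, and filled points have an adjusted p under 0.05 in edgeR. Filled points occur in liver and muscle of mice 1 to 16, from -1.67 for Ppard in liver to 1.46 for Nrip1 in muscle.

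The genes most like each member were sought among protein coding genes by Pearson's r of log2 CPM, over the libraries of mice 1 to 16 and of mice 25 to 40 apart, in the tissue with the member's highest mean CPM over the AL mice of both sets together. In AL mice 1 to 16 alone, Rxra and Ppargc1b had a higher mean in muscle than in liver, and Ppard in liver than in cortex. The choice of cortex also depends on the scale. By TMM, cortex minus muscle was -0.96 and -0.46 for Ppard in AL mice 1 to 16 and 25 to 40. It was -0.48 and -0.08 for Ppargc1a, and 0.16 and -0.62 for Nrip1. The likenesses below are descriptions over 16 libraries each, or 15 in cortex of mice 1 to 16, which mix both diets. In liver Ppara went with Txnip (r = 0.875 and 0.769) and Ugt1a6b (0.72 and 0.682), Pparg with Ugt2b35 (0.823 and 0.761) and Cdo1 (0.674 and 0.682), Ppargc1b with Pitpnm2 (0.849 and 0.807) and Ubr2 (0.804 and 0.809), and Rxra with Hspa9 (0.925 and 0.925) and Serpina3m (0.916 and 0.925). In muscle Esrra went with Cycs (0.908 and 0.899) and Atp5g1 (0.898 and 0.967). In cortex Ppard went with Nfix (0.94 and 0.863) and Grk2 (0.855 and 0.862), Ppargc1a with Naa50 (0.75 and 0.855) and Igip (0.747 and 0.733), and Nrip1 with AW549877 (0.817 and 0.796) and Purb (0.75 and 0.786). Esrra and Cycs are a receptor and the cytochrome c gene of the PGC-1 and ERR target list.

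The promoters of the members, whatever their result, were read for letters known as nuclear receptor and cyclic AMP motifs. RefSeq sequence on GRCm38.p6 gave 11 windows of the 250 bases before a transcript start for 7 of the 8 members, and Ppargc1b had no entry. Searched on both strands, the core of the cyclic AMP response element, TGACG, was in 17.8% of 32851 promoter windows and in 2 of the 11, those of Ppara and Ppargc1a. The nuclear receptor core, AGGTCA, was in 14% of all windows and in 3 of the 11, of Pparg (2 windows) and Rxra (1 window). The E-box CACGTG (6.02% of all windows), the ERR element TCAAGGTCA (0.387%), which contains the nuclear receptor core, and a pair of AGGTCA with 1 base between them (0.0335%) were in 0 of the 11. A match is a description of letters and not a binding site. The promoters shown hold a match and are given, from 5′ to 3′ on the strand of the gene, for Ppara and Rxra, which rose in IF liver without overlap, and for Ppargc1a, which rose in liver and muscle. They are chr15:85735526-85735775 (plus strand, TGACG beginning 222 bases before the start), chr5:51567726-51567975 (minus strand, CGTCA, the reverse complement of TGACG, 49 bases before) and chr2:27709042-27709291 (plus strand, TGACCT, the reverse complement of AGGTCA, 87 bases before and AGGTCA 48 bases before). The capitals mark the matches.
Ppara: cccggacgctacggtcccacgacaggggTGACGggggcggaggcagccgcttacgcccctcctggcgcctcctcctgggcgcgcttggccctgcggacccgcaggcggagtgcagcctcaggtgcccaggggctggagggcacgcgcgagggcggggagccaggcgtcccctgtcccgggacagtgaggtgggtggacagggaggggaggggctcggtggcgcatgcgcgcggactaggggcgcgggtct
Ppargc1a: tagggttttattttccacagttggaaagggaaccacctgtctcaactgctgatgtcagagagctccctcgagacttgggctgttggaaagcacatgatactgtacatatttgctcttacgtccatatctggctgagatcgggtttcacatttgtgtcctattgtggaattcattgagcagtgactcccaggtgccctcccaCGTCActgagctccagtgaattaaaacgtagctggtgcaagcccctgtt
Rxra: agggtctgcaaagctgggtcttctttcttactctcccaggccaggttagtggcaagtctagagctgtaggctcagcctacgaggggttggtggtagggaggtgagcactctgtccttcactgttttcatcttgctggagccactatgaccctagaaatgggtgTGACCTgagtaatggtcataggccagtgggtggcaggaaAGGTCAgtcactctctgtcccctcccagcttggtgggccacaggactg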

How the data were processed

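Poly-A RNA from liver, skeletal muscle and cortex was sequenced in 96 libraries, 1 per tissue and mouse. The values are raw counts per gene as deposited: the authors aligned paired reads to GRCm39 with HISAT2 2.0.5 and counted them with featureCounts 1.5.0-p3, and the strand setting and the treatment of shared reads are not stated. Library totals ran from 26097314 to 49838004 counts, so that 1 CPM is between 26 and 50 reads. The cortex library of AL mouse 1 was left out because its Xist and Y-linked counts go against its label. CPM are raw counts over the library's raw total. Groups follow the labels, tissue by diet by set of mice (1 to 16 and 25 to 40).

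Differences were tested in R 4.3.3 with edgeR 4.0.16: TMM factors, filterByExpr (minimum count 10, minimum total 15), robust quasi-likelihood F tests, and Benjamini-Hochberg adjustment over all genes tested, threshold 0.05. All adjusted p in the text come from edgeR unless DESeq2 is named. Responses were compared between sets and between tissues by interaction terms, with the mouse as a block in fits across tissues. AL mice of the sets were compared after seeing the data. Confidence intervals are the estimate and its normal quantiles.

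Alternatives were RLE size factors, the DESeq2 1.42.0 Wald test, no expression filter, at least 10 counts in every library, a replicate block, 1 fit over both sets, mice 1 to 16 without AL mouse 2 and IF mouse 10 (7 mice per group in liver and muscle, 6 AL and 7 IF mice in cortex), and the omitted cortex library included, and, for fits across tissues, no mouse block. Leaving out IF mouse 9 or 10 in liver or IF mouse 12 in muscle was added after seeing the data. Tables and figures used Python 3.11.15, pandas 2.3.3 and matplotlib 3.10.9.

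The members and the gene lists were chosen with earlier results of these data known. Lists held other family members, corepressors and coactivators, PPARα and PPARδ targets, PPARγ targets of adipocytes, PGC-1 and ERR targets, regulators of Ppargc1a, core clock genes and 12 marker lists. From each list the called genes with the largest change, at most 4 per comparison, were named, and as genes like a member the 2 with the highest smaller r of the sets. Some genes that this rule names are not reported here. Outlying mice were sought with Dixon's test in groups of 7 or 8. Protein data were not used here.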

Additional observations from a re-analysis of the deposited data

Results flagged for a closer look

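Of 96 groups of 7 or 8 mice tested with Dixon's test on CPM, 7 held a mouse far from the others, and chance gives about 1 in 20 groups. In muscle, IF mouse 12 stood apart in Ppara, at 2.666 CPM where the next mouse had 0.5796 and the lowest 0.3246, and in Pparg, at 18.86 where the next had 7.365 and the lowest 4.343. AL mouse 2 stood apart in Pparg in muscle, at 4.995 where the next had 3.153 and the lowest 1.739. In liver, IF mouse 11 stood apart in Ppargc1a, at 11.47 where the next had 7.101 and the lowest 3.772, AL mouse 26 in Ppargc1b, at 15.03 where the next had 9.359 and the lowest 4.634, and IF mouse 10 in Rxra, below the rest at 255.9 where the next had 348.0 and the highest 413.1. In cortex IF mouse 10 stood apart in Esrra, at 145.3 where the next had 121.9 and the lowest 104.3.

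The response to IF differed between mice 25 to 40 and mice 1 to 16 by the interaction test in 10 member and tissue pairs, on the log2 scale. In liver the difference was -1.2314 in Ppara, 1.8442 in Ppard, -1.0159 in Ppargc1a and -0.7919 in Rxra. In muscle it was 0.5501 in Ppard, -1.4907 in Pparg, -0.7008 in Ppargc1a, 0.6585 in Esrra, -0.8325 in Nrip1 and 0.5529 in Rxra. Set and labelled sex cannot be told apart.

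Within mice 1 to 16 the response differed between tissues by the same kind of test in 14 pairs. Muscle minus liver was -1.6134 in Ppara, 1.2352 in Ppard, 1.911 in Pparg, -0.9325 in Ppargc1b, -0.7126 in Esrra, 1.5953 in Nrip1 and -1.2758 in Rxra. Cortex minus liver was 1.6904 in Ppard, -0.844 in Ppargc1a and -0.6873 in Rxra, and cortex minus muscle was -1.3056 in Pparg, 0.6758 in Esrra, -1.6521 in Nrip1 and 0.5885 in Rxra.

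The library that the comparisons leave out, cortex of AL mouse 1, held 10219 counts of Xist, where the other libraries of mice 1 to 16 held at most 25. The cause was not tested.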

How the results depend on the processing

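All 12 member estimates called in liver and muscle of mice 1 to 16 kept their direction and stayed past the threshold under every alternative run, 102 of 102 values. Of 233 values of member estimates not called, 223 kept direction and side, 6 passed the threshold and 4 changed sign. The 6 were Esrra in liver of mice 1 to 16 without IF mouse 10, Ppara in muscle of mice 1 to 16 by DESeq2 and without IF mouse 12, Nrip1 in muscle of mice 25 to 40 by DESeq2 and in 1 fit over both sets, and Rxra in cortex of mice 1 to 16 in that fit. The estimates that changed sign lay near 0: Ppargc1a in muscle of mice 25 to 40 was 0.002 in 1 fit over both sets, and in cortex of mice 1 to 16 Ppard was -0.02 and Pparg -0.001 without AL mouse 2 and IF mouse 10 (6 AL and 7 IF mice), and Pparg was -0.04 with the cortex library of AL mouse 1 included. The cause was not tested.

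Counts of called genes changed with the test, the filter and the libraries used in the comparisons given here. DESeq2 called 6 genes in liver, 97 in muscle and 68 in cortex of mice 25 to 40 and 2259 in cortex of mice 1 to 16, and 1 member in muscle of mice 25 to 40. With 1 fit over both sets, 38 genes and 1 member were called in muscle and 4 genes in cortex of mice 25 to 40, and 2044 genes and 1 member in cortex of mice 1 to 16. Without the expression filter 5 genes were called in muscle of mice 25 to 40, 220 in the difference between sets in cortex, 534 in the difference between cortex and muscle responses of mice 1 to 16, and 0 members between the AL cortices of the sets. In cortex of mice 1 to 16 there were 498 without AL mouse 2 and IF mouse 10 and 294 with the library of AL mouse 1 included. In the differences between tissue responses of mice 25 to 40, the fit without the mouse block called 13 genes between muscle and liver and 12 between cortex and liver, against 1 and 0 with the block. RLE size factors gave 2 and 0, and edgeR without the expression filter 0 in each of the 3 contrasts, where 1648, 2037 and 1160 genes passed at an unadjusted p under 0.05 with the filter and DESeq2 was not run. The cause was not tested.

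With the replicate number as a block, 382 genes were called in cortex of mice 1 to 16 and 0 by edgeR in cortex of mice 25 to 40, where DESeq2 without a block called 68 and 2069 genes passed at an unadjusted p under 0.05. The AL and IF mice that share a number are different animals. Between such mice, deviations of log2 CPM from the diet group's mean correlated at r from -0.234 to 0.428 over all tissues and sets.

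Outside the diet estimates, 7 of 204 called member values fell short of the threshold under an alternative, all without the expression filter, where more genes are tested, and 1 value not called, Ppargc1a in the difference between cortex and muscle responses, passed without the mouse block. Of the counts in gene lists 759 stayed within 1.5 times, 20 rose and 38 fell, and of the named list genes 724 values kept and 56 lost their call. Ppara in cortex had 0 to 31 counts per library, the fewest of the members.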
